A study of Mus musculus with 2 samples.

Results

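Among 5146 cells kept from the vehicle library of PLZF/RARA promyelocytes, 61 carried the transcripts of neutrophil secondary granules at a level that is rare in that library and common after retinoic acid. They were selected on their own measured values. A cell was a member when at least 3% of its UMIs, each of which marks 1 captured RNA molecule, came from Camp, Ngp, Ltf, Lcn2, S100a8 and S100a9 together, a sum called the granule share here. Only cells with 5000 or more UMIs, 500 or more genes and a mitochondrial UMI share of 0.1 to 10% entered. The members made up 1.19% of the kept vehicle cells (exact 95% binomial interval 0.908 to 1.52%). By the same rule 3314 of 6248 retinoic acid cells passed, 53.0% (51.8 to 54.3%), out of 11394 kept cells in both libraries. With S100a8 and S100a9 left out of the rule, 50 vehicle cells and 39.4% of the retinoic acid cells passed.

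The study sorted promyelocytes of a late stage, defined as Gr1+, FcγR+, c-Kit+ and CD45.2+ but CD34-, from the leukemic bone marrow of mice and sequenced their polyadenylated RNA cell by cell with a 10x Genomics 3′ kit. The cells of both groups were progenitors transformed by PLZF/RARA, a fusion of the zinc finger protein PLZF with retinoic acid receptor alpha. The vehicle group received corn oil with 10% DMSO and the other group 0.8 to 1 mg of retinoic acid, both injected intraperitoneally over 7 days. Cohorts held 3 to 5 mice. The labels state neither the age and strain of the mice nor how many of them gave cells to a library. Each group is 1 library, so treatment, mice, sort and library preparation cannot be told apart, no test was made, and every interval covers counting error only.

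Neutrophils build their granules in a fixed order. Promyelocytes fill primary granules with myeloperoxidase and serine proteases such as elastase, and later myelocytes and metamyelocytes fill secondary granules with cathelicidin, lactoferrin and lipocalin 2. The transcription factor C/EBP epsilon is required for secondary granule genes, and dividing stops as the cells mature. In acute promyelocytic leukemia this sequence is halted at the promyelocyte, and retinoic acid is a drug known for releasing it in some forms of the disease.

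The kept vehicle and retinoic acid cells other than those passing the rule numbered 5085 and 2934. The members were shallower than the other vehicle cells, with a median of 10554 UMIs (5135 to 33037) and 2750 genes against 17233 UMIs and 3816 genes, and they held 757424 UMIs in all. The retinoic acid cells passing the rule had a median of 13283.5 UMIs and 3191 genes. Mitochondrial UMIs had a median of 1.49% in the members, 2.02% in the other vehicle cells and 1.19% in the passing retinoic acid cells. Of 11 barcodes present in both libraries, 0 belonged to a member. A doublet caller marked 1 vehicle cell (0.0194%) and 3 retinoic acid cells (0.0480%), too few for the caller to have worked, and no cell was removed. Of the members, 1 was among the 5% of vehicle cells with the highest doublet scores.

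The granule share ran without a gap across the 3% limit. The members nearest to it had 3.01, 3.15 and 3.18%, and the nearest cells outside had 2.999, 2.93 and 2.90%. The vehicle library held 39 cells between 1 and 2% and 16 between 2 and 3%, then 19 members between 3 and 5%, 17 between 5 and 10%, 16 between 10 and 20% and 9 at 20% or more. The members' median share was 5.97% and their highest 28.3%, against a median of 0.0311% in the other vehicle cells. The passing retinoic acid cells reached further, with a median of 9.21% and a highest share of 54.8%.

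**Figure D1:**
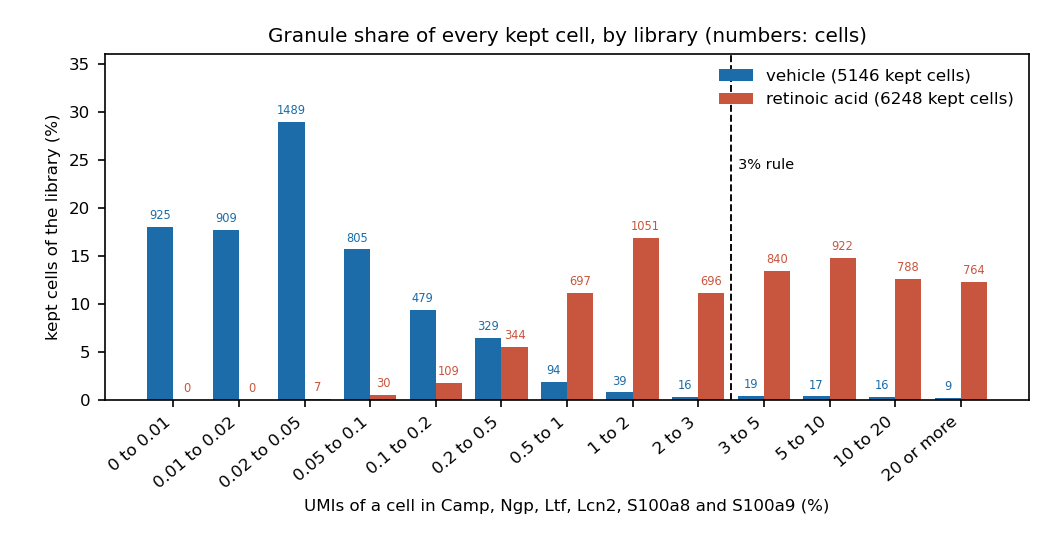
Percent of the kept cells of each library (y axis) by granule share of the cell in percent (x axis, unequal classes); blue bars are vehicle, red bars retinoic acid, the numbers are cells and the dashed line is the 3% rule. The 61 vehicle cells right of the line form a thin tail, while 3314 retinoic acid cells lie there.

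The 6 genes of the rule are described first, as a description only because they chose the cells. Ngp, which encodes neutrophilic granule protein, was found in all 61 members at 43 to 1062 UMIs per cell with a median of 429. Camp, the cathelicidin antimicrobial peptide, ran from 0 to 748 UMIs with a median of 163, and 3 members had none. S100a9 ran from 0 to 1342 UMIs (median 125) and its partner S100a8 from 0 to 737 (median 84). These 2 proteins form calprotectin, which binds calcium and zinc, and 2 and 3 members had no UMI of S100a9 and S100a8. Lcn2, the iron-siderophore carrier lipocalin 2, was found in every member at 3 to 286 UMIs (median 49). Ltf, which encodes lactoferrin, was found in 19 of 61 members and reached 78 UMIs. Only 17 members had UMIs of all 6 genes.

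The balance among the 6 genes differed from that of the retinoic acid cells passing the same rule. Ngp gave more UMIs than any other rule gene in 44 of 61 members (72.1%, 59.2 to 82.9%) but in 294 of 3314 passing retinoic acid cells (8.87%, 7.92 to 9.89%). Camp was the leading gene in 2 members (3.28%, 0.400 to 11.3%) and in 1745 retinoic acid cells (52.7%, 50.9 to 54.4%), where 11 cells with a tie are counted under each of the tied genes. Summed over cells, there were 0.510 Camp counts per Ngp count in the members, 1.33 in the passing retinoic acid cells and 0.0501 in the other vehicle cells. As summed levels per 1000000 UMIs (CPM), Ngp was at 35766 in the members, 25811 in the passing retinoic acid cells and 402 in the other vehicle cells. Camp stood at 18257, 34303 and 20.2 CPM in the same order. Lcn2 stood at 5272, 3041 and 182 CPM, and Ltf at 574, 200 and 0.0625 CPM, the last being 6 UMIs in 5085 cells. S100a8 was at 9967 CPM in the members against 22691 in the passing retinoic acid cells, and S100a9 at 14994 against 25706. Thus Ngp, Lcn2 and Ltf were higher and Camp, S100a8 and S100a9 lower in the members than in the retinoic acid cells, all by less than 3-fold.

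Members differed from each other in which genes carried the share. In 13 of 61 members (21.3%, 11.9 to 33.7%) S100a8 and S100a9 together exceeded Camp and Ngp together. Across the 61 cells of this 1 library, per-cell CPM of Camp and Ngp had a Spearman correlation of 0.68 and S100a8 and S100a9 of 0.51. Between the pairs, Ngp had 0.23 with S100a8 and 0.22 with S100a9, and Camp had 0.46 with S100a8 and 0.30 with S100a9. These values share the cells' depth and the limit on their sum, and are given as descriptions. A member with 4.46% of its UMIs in these genes held 533 S100a8 and 7 S100a9 UMIs, and a member at 18.1% held 545 and 0, so the pair did not always appear together.

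Upstream sequences of the rule genes are shown because 5 of the 6 lie on 2 chromosomes and 4 of the 6 hold a C/EBP motif. Camp, Ngp and Ltf lie on chromosome 9 of GRCm38 (109847379 to 109849617 on the minus strand, 110419747 to 110423012 on the plus strand and 111019271 to 111042767 on the plus strand). S100a8 (90668978 to 90670035, plus) and S100a9 (90692632 to 90695721, minus) lie on chromosome 3, and Lcn2 (32384633 to 32388252, minus) on chromosome 2. In the 250 bases before the RefSeq start (GRCm38.p6), the C/EBP core TTGCNNAA, searched on both strands, was found at Ngp, Ltf, Lcn2 and S100a9, against 9.57% of 32817 promoters of that length. The PU.1 core GAGGAAG was found at Lcn2 and S100a8, against 10.6% of promoters, and no match of one motif overlapped the other. A match describes letters and not binding. The stretches below lie outside annotated exons, read 5′ to 3′ on the gene's strand, with the C/EBP match that lies in the stretch in capitals; Ngp has another match in the 250 bases that lies outside the stretch and is not shown:
Ngp, chr9:110419558-110419746 (plus): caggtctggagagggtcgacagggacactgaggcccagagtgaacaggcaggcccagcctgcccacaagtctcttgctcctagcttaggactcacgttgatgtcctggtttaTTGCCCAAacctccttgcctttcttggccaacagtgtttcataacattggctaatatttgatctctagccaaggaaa
Ltf, chr9:111019042-111019270 (plus): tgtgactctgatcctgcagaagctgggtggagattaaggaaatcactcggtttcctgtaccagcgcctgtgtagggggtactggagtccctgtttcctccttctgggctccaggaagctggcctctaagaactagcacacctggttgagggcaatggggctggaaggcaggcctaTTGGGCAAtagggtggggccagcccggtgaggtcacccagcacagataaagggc
S100a9, chr3:90695722-90695971 (minus): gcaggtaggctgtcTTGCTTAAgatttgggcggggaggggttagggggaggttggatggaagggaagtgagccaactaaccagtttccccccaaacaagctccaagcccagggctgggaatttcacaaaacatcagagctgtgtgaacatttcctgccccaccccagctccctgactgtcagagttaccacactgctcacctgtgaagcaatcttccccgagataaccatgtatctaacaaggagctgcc

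**Figure D2:**
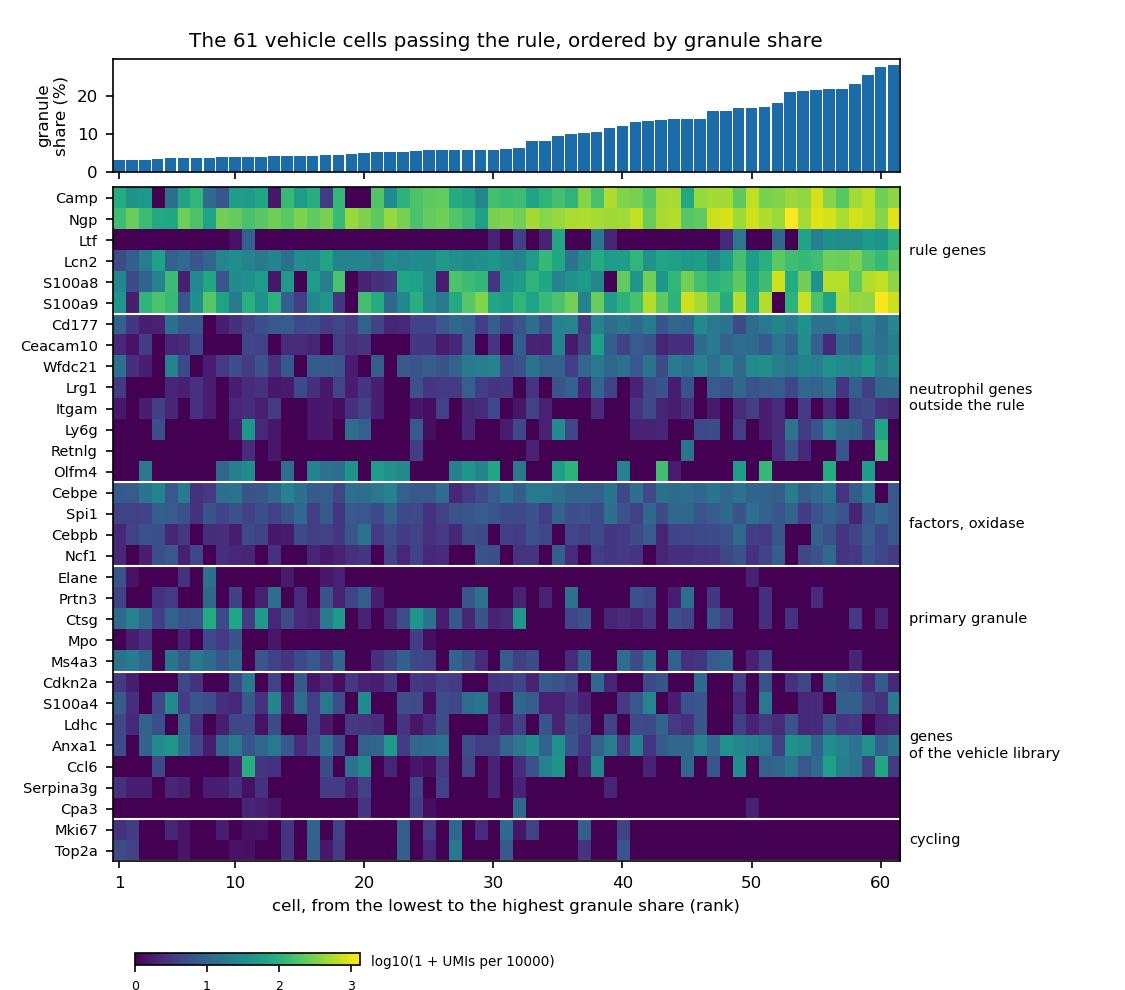
The 61 members ordered by granule share (x axis, rank), with the share in percent as bars above and, below, 1 row per gene coloured by log10(1 + UMIs per 10000 UMIs of the cell). Ngp and Lcn2 are present in every column, Ltf in 19, and Elane in 8.

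Most neutrophil genes outside the rule that could be compared were high in the members, which is what the label neutrophil-like rests on. The comparison is with the other vehicle cells, takes genes with at least 50 CPM in either group and counts a 2-fold difference. It is a description, since the members were chosen from the same counts. Of 3047 genes compared, 7.65% (233) were at least 2-fold higher and 7.42% (226) at least 2-fold lower in the members, with a median log2 ratio of -0.17. With the rule genes left out of the totals the split was 308 and 152. Against the passing retinoic acid cells 2912 genes were compared, of which 6.35% (185) were at least 2-fold higher and 3.43% (100) at least 2-fold lower, with a median of -0.03. There a trimmed mean scaling (TMM) would lower each log2 ratio by 0.11 and made the split 150 and 161. The percentages over all genes compared are the reference for each count of list genes in this report. Of 29 neutrophil genes in the list, 20 were compared, and 15 were at least 2-fold higher and 0 lower, with a median log2 ratio of 2.42. Mmp8, Mmp9, Csf3r, Fpr1, Fpr2 and Chil3, also in this list, were too low to compare. Against the passing retinoic acid cells 5 of 20 were higher and 2 lower, with a median of 0.41. Cd177, a neutrophil surface protein, had 0 to 37 UMIs per member (median 11) and was seen in 60 of 61. Its summed level was 828 CPM against 6.14 CPM, a log2 ratio of 7.07 (6.91 to 7.24). Ceacam10, an adhesion molecule of the carcinoembryonic antigen family, was seen in 50 members at up to 43 UMIs and stood at 477 against 1.11 CPM. Wfdc21 was at 990 against 7.37 CPM and Lrg1, a secreted leucine-rich glycoprotein, at 290 against 7.68 CPM. The integrin chains Itgam and Itgb2, which pair as the receptor Mac-1, were at 100 against 8.51 CPM and at 334 against 42.7 CPM. Hp, which encodes haptoglobin, was found in all 61 members and stood at 985 against 167 CPM.

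Genes of later neutrophils were mostly too low to compare. Of 29 in the list 10 reached the level for comparison with the other vehicle cells, and 9 of them were at least 2-fold higher and 0 lower (median log2 ratio 2.04). Against the passing retinoic acid cells 12 were compared, 4 were higher and 3 lower (median 0.32, and -0.05 with a granule limit of 5%). Prr13 was found in all 61 members and stood at 846 CPM against 344 and 251 CPM, and Mxd1, a partner of Max that opposes Myc, at 92.4 against 9.74 and 44.3 CPM. Mmp8, the neutrophil collagenase, had 7 UMIs in all members together and the gelatinase Mmp9 had 23, of which 9 lay in 1 cell. The G-CSF receptor gene Csf3r had 2 UMIs, the formyl peptide receptor genes Fpr1 and Fpr2 had 0 and 1, and Chil3 had 0. These genes, with Mmp8 and Mmp9, belong to the neutrophil list that the label rests on, so part of that list was nearly absent. Mmp9 was found in 6.56% of members, 0% of the other vehicle cells and 2.53% of the passing retinoic acid cells. At 757424 UMIs, a count of 0 allows up to 3 counts, or 3.96 CPM. Retnlg, a resistin-like gene of mature neutrophils, had 166 UMIs, but 138 of them were in a single member with a granule share of 27.6%, and 10 members had any. Without that cell its log2 ratio to the passing retinoic acid cells moved from -0.87 to -3.40. Ly6g, the gene of the neutrophil antigen Ly-6G that the Gr1 antibody recognises, had 0 to 116 UMIs per member with a median of 1 and was seen in 33 of 61. Its 453 CPM compared with 27.1 CPM in the other vehicle cells and 506 CPM in the passing retinoic acid cells. The highest member held 33.8% of its UMIs, and without it the log2 ratio to the other vehicle cells was 3.52 in place of 4.06.

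Olfm4, which encodes the granule protein olfactomedin 4, was present or absent in the members with little between. It had 12 to 151 UMIs (median 41) in 25 members, 1 to 9 UMIs in 1 member and 0 UMIs in 35. Thus 41.0% of members (28.6 to 54.3%) had 10 or more UMIs, against 45.1% of the passing retinoic acid cells and 1.10% of the other vehicle cells. In the retinoic acid cells 43.1% had none and 11.7% had 1 to 9. Across the 61 cells the correlation of Olfm4 with the granule share was -0.02, whereas that of Cd177 with the share was 0.72.

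Some of the transcription factors and oxidase subunits that act in granulocytes were higher than in the other vehicle cells. Cebpe, which encodes C/EBP epsilon, was found in 60 of 61 members at a median of 12 UMIs and a highest value of 40. It stood at 982 CPM in the members, 394 in the other vehicle cells and 473 in the passing retinoic acid cells, with log2 ratios of 1.32 (1.21 to 1.42) and 1.06 (0.95 to 1.16). It was over 2-fold higher than in the other vehicle cells, and with TMM scaling just under 2-fold higher than in the passing retinoic acid cells (0.94). At a granule share of at least 20%, Cebpe was at 898 CPM in the members and 821 CPM in the retinoic acid cells. Spi1, the gene of the myeloid factor PU.1, had 1 to 14 UMIs in every member and stood at 522, 169 and 353 CPM in the same order. Of 10 myeloid factors compared with the other vehicle cells, 4 were at least 2-fold higher and 0 lower, with a median log2 ratio of 0.48, or -0.01 when genes from 20 CPM were compared. Gfi1, a repressor that acts in neutrophil development, was at 67.3 CPM against 76.1 in the other vehicle cells and 157 in the passing retinoic acid cells. Of 5 NADPH oxidase genes compared, 3 were at least 2-fold higher than in the other vehicle cells (median log2 ratio 1.37), among them Ncf1, the p47-phox subunit, at 189 against 6.74 CPM. Ncf4 stood at 429 against 78.4 CPM. Against the passing retinoic acid cells, 0 of 5 differed 2-fold and the median log2 ratio was 0.19, or -0.06 with a minimum of 10000 UMIs.

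Primary granule genes were low in the members and most of them were lower than in the retinoic acid cells that passed the same rule. Of 7 primary granule genes compared with those cells, 4 were at least 2-fold lower and 0 higher, with a median log2 ratio of -1.53. Against the other vehicle cells 3 of 8 were lower and 0 higher, with a median of -0.78. Elane, the gene of neutrophil elastase (chromosome 10, 79886247 to 79888215), had 37 UMIs in 8 of 61 members, 17 of them in 1 cell. That is 48.8 CPM against 6432 CPM in the passing retinoic acid cells, a log2 ratio of -7.02 (-7.55 to -6.58), and 63.0 CPM in the other vehicle cells. In cells thinned at random to 5000 UMIs, 6.56% of members (1.82 to 15.9%), 16.03% of the other vehicle cells and 88.2% of the passing retinoic acid cells had an Elane UMI, and without thinning 13.1, 33.2 and 92.2%. Prtn3, which encodes proteinase 3, was at 181 CPM against 2444 in the retinoic acid cells and 247 in the other vehicle cells. Ctsg, the gene of cathepsin G, was at 1291, 3724 and 6511 CPM in the members, the passing retinoic acid cells and the other vehicle cells. It ran from 0 to 170 UMIs per member with a median of 2. Ms4a3 was at 503, 1717 and 858 CPM in the same order.

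Mpo, the gene of myeloperoxidase, went the other way between the libraries. It had 34 UMIs in 9 members (44.9 CPM), 316 CPM in the other vehicle cells and 0 UMIs in the passing retinoic acid cells. Taking 3 counts for that 0, the members' summed level was 719-fold higher, a value that leaves out the counting error of the 34 UMIs. Of these 34, 13 lay in 1 member. Cpa3, the gene of mast cell carboxypeptidase A, which the vehicle library expressed widely, had 36 UMIs in 8 members, 21 of them in 1 cell. It stood at 47.5 CPM against 576 CPM in the other vehicle cells and 0 UMIs in the passing retinoic acid cells. A UMI of Mpo or Cpa3 was found in 14 of 61 members, but in 1 of the 25 members with a granule share of at least 10%. In cells thinned to 5000 UMIs, a Cpa3 UMI was found in 3.28% of members and 58.4% of the other vehicle cells, and without thinning in 13.1 and 74.6%. The part of free RNA in such shares was not tested. Of 10 genes listed because earlier work on these data had found them in the vehicle library, 9 were at least 2-fold lower in the members than in the other vehicle cells and 0 higher, with a median log2 ratio of -2.26. That choice makes the list no independent evidence of its direction. Serpina3g, of a serine protease inhibitor family with close copies among which reads could be split, was at 66.0 CPM against 316 CPM, and Cd34, the progenitor antigen sorted against, at 10.6 against 54.6 CPM.

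**Figure D3:**
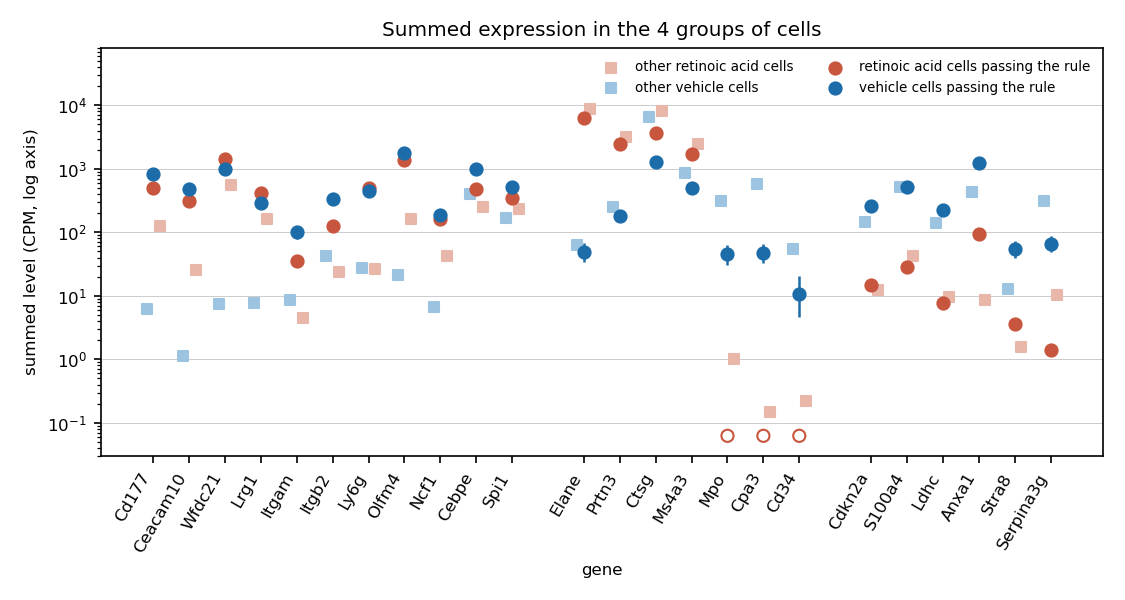
Summed level of each gene in CPM (y axis, log) in members (blue circles, with exact 95% Poisson intervals), other vehicle cells (light blue squares), passing retinoic acid cells (red circles) and other retinoic acid cells (light red squares); open symbols mark 0 UMIs, drawn at the level of 3 counts. Members lie nearer the passing retinoic acid cells than the other vehicle cells for Cd177 to Spi1, near or below the other vehicle cells for Elane to Cd34, and nearer the other vehicle cells for Cdkn2a, S100a4 and Ldhc.

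Several genes, among them Cdkn2a, S100a4, Ldhc and Adgre1, were found in the members and in the other vehicle cells and were far lower in the passing retinoic acid cells. Cdkn2a, the locus of the cell cycle inhibitors p16 and p19ARF, had 0 to 45 UMIs per member (median 2) and was seen in 41 of 61. It stood at 259 CPM in the members, 145 in the other vehicle cells and 14.6 in the passing retinoic acid cells, a log2 ratio of 4.15 (3.91 to 4.38) to the last. S100a4, a calcium-binding protein gene outside the rule, was seen in 47 members and stood at 514, 513 and 28.6 CPM. Ldhc, a lactate dehydrogenase gene best known from testis, was seen in 46 members and stood at 227, 142 and 7.78 CPM. Adgre1, the gene of the surface receptor F4/80, was at 96.4, 73.4 and 4.41 CPM. Itga6 was at 52.8, 18.2 and 2.33 CPM, and S100a10 at 741, 831 and 178 CPM. Anxa1 and Ftl1 had another pattern, with the highest level in the members. Annexin A1 (Anxa1), an anti-inflammatory protein of neutrophils, was at 1216, 432 and 94.8 CPM, and 58 of 61 members had it. From the class of 3 to 5% granule share to that of at least 20%, Anxa1 went from 921 to 2203 CPM in the members. In the retinoic acid cells it went from 5.78 to 499 CPM. The ferritin light chain gene Ftl1 was at 4370, 1490 and 1237 CPM and was found in all 61 members.

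Some of the largest ratios between the libraries rested on 1 member. A cell with 26880 UMIs and a granule share of 3.87% held 56 of the 62 Ccl9 UMIs, 57 of 132 Cyp11a1 UMIs, 243 of 647 Ccl6 UMIs, 116 of 343 Ly6g UMIs and 45 of 196 Cdkn2a UMIs, although it had 3.55% of the members' UMIs. Ccl6 and Ccl9 encode CC chemokines, and Cyp11a1 the enzyme that begins steroid synthesis. Without the highest cell, the log2 ratio to the passing retinoic acid cells went from 5.75 to 2.54 for Ccl9, from 3.71 to 3.08 for Ccl6, from 4.003 to 3.24 for Cyp11a1 and from 4.15 to 3.83 for Cdkn2a. Of the 185 genes at least 2-fold higher in the members than in those retinoic acid cells, 160 remained so without the highest cell of each gene. Of the 233 higher than in the other vehicle cells, 210 did.

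**Figure D4:**
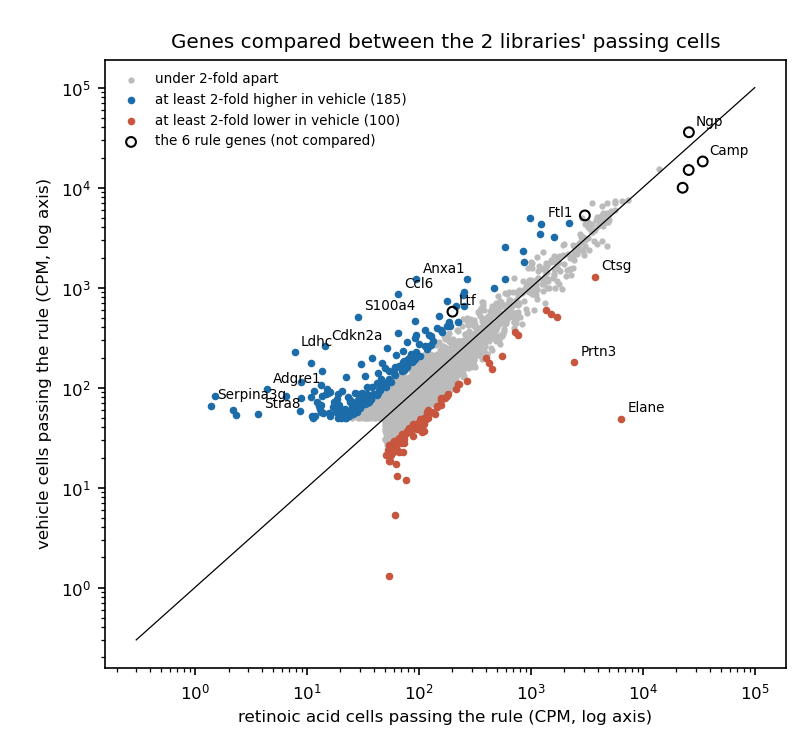
Each point is a gene, placed by its CPM in the passing retinoic acid cells (x axis, log) and in the members (y axis, log); blue points are at least 2-fold higher and red points at least 2-fold lower in the members, black rings are the 6 rule genes and the line marks equal levels. Elane, Prtn3 and Ctsg lie below the line, and Serpina3g, Ldhc, Cdkn2a, S100a4 and Anxa1 above it.

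In 5 others of the 23 lists, between 1 of 6 and 3 of 5 of the genes compared were higher by 2-fold or more and 0 were lower. Over all genes compared, 7.65% were higher than in the other vehicle cells and 6.35% higher than in the passing retinoic acid cells. The lists had 3 to 13 genes compared, so a count of 1 is a single gene and says little about a list. The lipid droplet, lysosome and antioxidant list had 13 genes compared, with 5 higher by 2-fold or more and 0 lower, both against the other vehicle cells (median log2 ratio 0.34) and against the passing retinoic acid cells (0.60). Plin2, which coats lipid droplets, stood at 335 CPM against 82.2 and 95.1 CPM, and Ctsd, the lysosomal protease cathepsin D, at 518 against 238 and 152 CPM and in all 61 members. Of 6 immediate early genes, 2 and 3 were higher in the same order and 0 lower (medians 0.55 and 0.99), among them Nfkbia, the inhibitor of NF-kappa-B, at 264 against 78.1 and 129 CPM. Of 6 S100 genes outside the rule, 1 and 2 were higher and 0 lower. Of 3 interferon response genes compared, 1 was higher and 0 lower by 2-fold in both comparisons. It was Ifi27l2a, at 227 against 22.6 and 94.5 CPM, while Bst2, the gene of tetherin, was at 154 against 264 and 98.9 CPM. Cd44, a receptor for hyaluronan, was at 111 against 41.0 and 42.8 CPM. In the chemokine and adhesion list 2 of 7 genes were 2-fold higher than in the other vehicle cells (median log2 ratio 0.24, or -0.22 without S100a8 and S100a9 in the rule and -0.17 with equal weight per cell) and 3 of 5 higher than in the passing retinoic acid cells, Ccl9 among the latter.

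Retinoid genes were read because the vehicle group received no retinoic acid. Dhrs3, a retinal reductase gene that retinoic acid is known to induce, had 57 UMIs in 26 members, at most 12 in a cell. Its 75.3 CPM compared with 1.28 CPM in the other vehicle cells and 30.1 CPM in the passing retinoic acid cells, log2 ratios of 5.88 (5.398 to 6.34) and 1.33 (0.91 to 1.70). Dhrs3 was also higher at a higher granule share in both libraries. From the class of 3 to 5% to that of at least 20%, it went from 22.3 to 246 CPM in the members, on 7 and 17 UMIs. In the retinoic acid cells it went from 12.9 to 80.5 CPM, and those with a share under 1% had 4.88 CPM. The cause of its level was not tested. Cyp26a1, which encodes a retinoic acid hydroxylase, had 2 UMIs in the members and 3.37 CPM in the passing retinoic acid cells, so nothing can be read at this depth. Stra8, another gene named for its response to retinoic acid, was at 54.1, 12.8 and 3.64 CPM in the members, the other vehicle cells and the passing retinoic acid cells. Rara stood at 25.1, 10.8 and 2.08 CPM and Zbtb16 at 1.32, 9.98 and 0.978 CPM, where 3′ counts cannot tell a fusion transcript from the normal gene. Ezh2, the methyltransferase of Polycomb repressive complex 2, was at 39.6, 57.3 and 86.3 CPM. Of 6 genes of that complex compared with the retinoic acid cells 1 was at least 2-fold lower and 0 higher, beside 3.43% lower over all genes. Among the sorted antigens, Kit had 6 UMIs in the members (7.92 CPM, against 19.3 and 15.9 CPM), Ptprc (CD45) was at 180, 99.2 and 113 CPM and the Fcγ receptor gene Fcgr3 at 112, 52.2 and 77.0 CPM.

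Cell cycle genes were lower in the members than in the passing retinoic acid cells. Phases called from S and G2/M genes on cells thinned to 5000 UMIs put 77.0% of members (64.5 to 86.8%) in G1, against 51.3% of the other vehicle cells and 29.5% of the passing retinoic acid cells. Without thinning the percentages in G1 were 77.0, 51.9 and 30.0. S phase held 4 members (6.56%) and G2/M 10 (16.4%). The gap was also present at a matched share: of members with at least 10%, 23 of 25 were in G1 (exact interval 74.0 to 99.0%), and of such retinoic acid cells 42.4% (39.9 to 44.9%). Mki67, the proliferation antigen gene, and Top2a, topoisomerase 2 alpha, gave a UMI in 21 members, of which 2 had a share of at least 10%, and 10 members had at least 10 UMIs of the 2 genes together. Against the passing retinoic acid cells, 6 of 19 S phase genes and 9 of 30 G2/M genes were at least 2-fold lower and 0 higher (median log2 ratios -0.84 and -0.83). Over all genes compared with those cells, 3.43% were lower. Against the other vehicle cells, 3 of 15 and 2 of 24 were lower, where the share over all genes was 7.42%. The G2/M count in that comparison is near the share over all genes.

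At matched granule share the libraries still differed in Elane, Ctsg, Cdkn2a and S100a4, while the difference in Cebpe narrowed at higher shares. In the 4 classes from 3 to 5, 5 to 10, 10 to 20 and at least 20% there were 19, 17, 16 and 9 members against 840, 922, 788 and 764 retinoic acid cells, so single members weigh heavily. Elane was at 115, 0, 6.59 and 0 CPM in the members and at 8938, 7733, 4899 and 1193 CPM in the retinoic acid cells. Ctsg was at 2231, 1091, 204 and 58.0 CPM against 6131, 4362, 1969 and 370 CPM. Ctsg was lower in each higher class of both libraries, and the 6.59 CPM of Elane is 1 UMI. Cebpe was at 982, 983, 1021 and 898 CPM (689 to 1152 in the last class) against 314, 391, 559 and 821 CPM. Cdkn2a was at 274, 224, 211 and 406 CPM against 11.4, 15.3, 18.01 and 14.4 CPM, and S100a4 at 583, 489, 428 and 464 CPM against 29.3, 25.8, 27.4 and 35.0 CPM. Ltf was at 73.3, 346, 217 and 4376 CPM against 1.32, 22.2, 81.3 and 1125 CPM. In the members' first class 22 of 23 Ltf UMIs lay in 1 cell, and in the next class 69 of 77 did. Ltf, Ngp and Camp are rule genes, so their levels at a matched share are bound by the rule. With the retinoic acid cells weighted to the members' classes, the log2 ratio was -7.16 for Elane, 4.20 for Cdkn2a, 0.73 for Ngp and -0.67 for Camp.

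**Figure D5:**
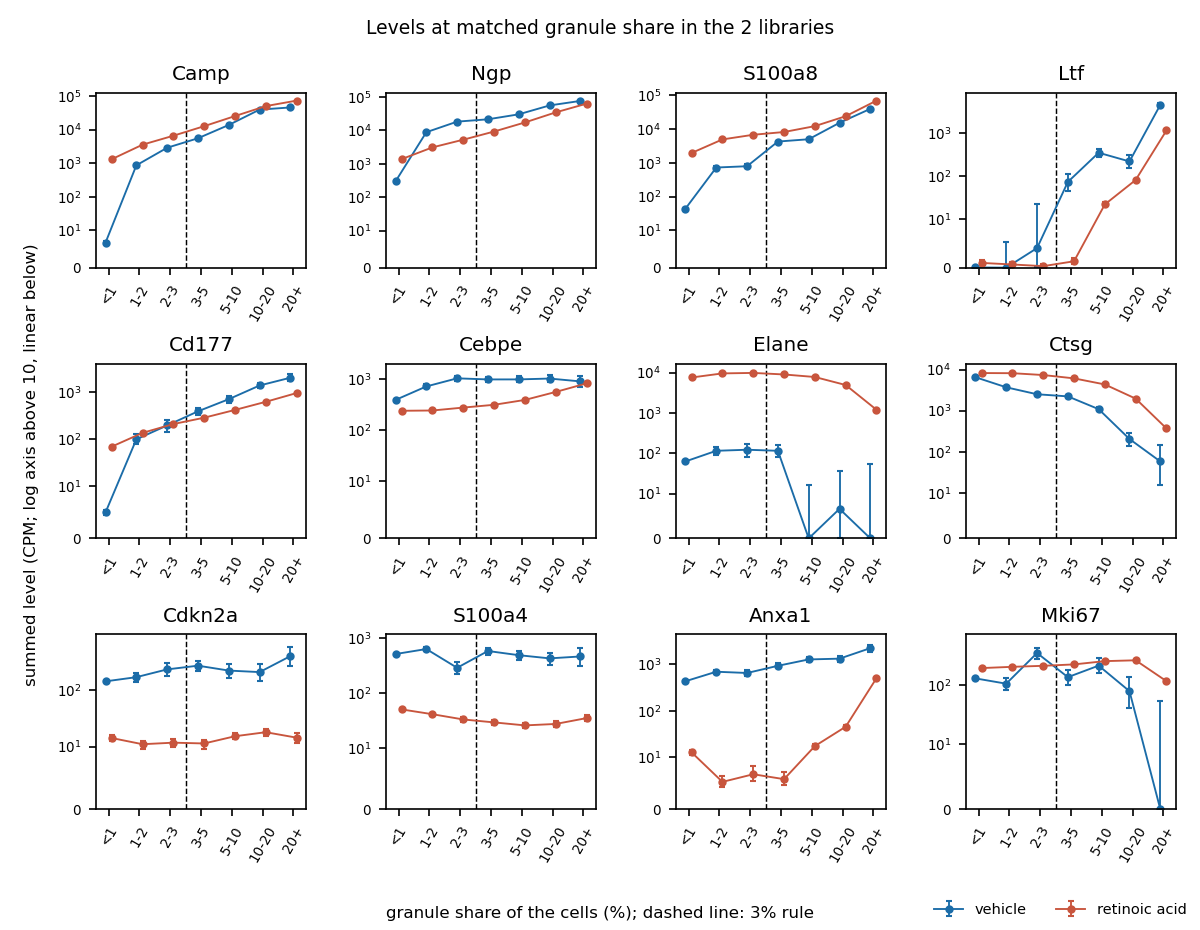
Summed level in CPM (y axis, log above 10 and linear below) of 12 genes in cells grouped by granule share in percent (x axis), for vehicle (blue) and retinoic acid (red) with exact 95% Poisson intervals; the dashed line is the 3% rule. Elane is lower and Cdkn2a and S100a4 are higher in the vehicle library in every class, while Cd177 increases with the share in both. Camp and Ngp also increase, but they are rule genes and so part of the share itself.

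The share was accompanied by other differences among the members. Members with a higher granule share had fewer UMIs (Spearman correlation -0.55 over 61 cells) and lower per-cell CPM of Ctsg (-0.60) and of Lgals1, a galectin gene (-0.60). These correlations are descriptions of cells of 1 library. With a minimum of 10000 UMIs 34 members were left.

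Of the lists of markers of other lineages described here, only the erythroid one was wholly at 0. All 8 erythroid genes, among them the globins, had 0 UMIs in the members. Of 13 monocyte and macrophage genes, 8 were at 0, including C1qa, C1qb, C1qc, Fcgr1 and Cx3cr1. Their sum was 114 CPM in the members and 80.8 CPM in the other vehicle cells, of which Adgre1 made up most. Of 12 lymphocyte genes, 8 were at 0, and most of the sum of 779 CPM came from Nkg7, which is also in the primary granule list. The 13 mast and basophil genes summed to 153 CPM in the members and 843 CPM in the other vehicle cells, and the 9 eosinophil genes to 26.4 and 98.6 CPM. In the members Mcpt8, a basophil protease, had 6 UMIs, while Hdc, histidine decarboxylase, had 35 UMIs in 9 cells.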

How the data were processed

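The deposited matrices hold raw UMI counts for each gene in each cell; per the file headers their software was Cell Ranger 4.0.0. Builds mm10 and GRCm38.p4 are named in the submitters' processing notes, and how cell barcodes were told from empty ones is not given in the sources used here. Both libraries list the same 32285 genes, of which 32158 matched GENCODE M21 (GRCm38) by identifier. Promoter sequences are from RefSeq (GRCm38.p6). The vehicle library held 5786 barcodes and 99679545 UMIs, the retinoic acid library 7416 and 110443779.

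Counts were summed over the cells of a group and scaled to CPM. Log2 ratios had 0.5 counts added to each sum, with exact binomial intervals conditional on both sums. Levels carry exact Poisson intervals and shares exact Clopper-Pearson intervals, all at 95%. Rule genes were left out of the compared genes. Named genes were the 6 rule genes, list members with at least 50 CPM in any of the 4 groups, the 10 largest differences each way in each of 2 comparisons, and antigens, fusion partners, Ezh2 and other cell types' markers at any level. Genes under that level (Mmp8, Mmp9, Csf3r, Fpr1, Fpr2, Chil3, Cyp26a1) are neutrophil markers or retinoid genes of the lists, and Lgals1 was chosen after its values were seen. The members and the 23 lists were chosen with earlier results of these data known. Phases used scanpy 1.11.5, doublet scores its Scrublet, and the scaling alternative the TMM factors of edgeR 4.0.16. The ratio calculation was tested on simulated data. Alternatives numbered 16 planned and 2 added after seeing the data.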

Additional observations from a re-analysis of the deposited data

Results flagged for a closer look

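Vehicle barcodes outside the kept cells also passed the 3% granule limit. Of 186 vehicle barcodes with at least 1000 but under 5000 UMIs and a mitochondrial percent in range, 11 passed, or 5.91% (exact 95% interval 2.99 to 10.3%), against 248 of 402 (61.7%) in the retinoic acid library. Of 136 vehicle barcodes with at least 5000 UMIs and under 0.1% mitochondrial UMIs, 4 passed, or 2.94% (0.807 to 7.36%), against 247 of 411 (60.1%). The first share lies above the 1.19% of the kept cells by more than counting error, and the interval of the second includes it. Neither set of barcodes enters a comparison of the report.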

How the results depend on the processing

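No paired analysis was possible because there was a single library in either group, and for that reason no replicate could be left out. The share of 1.19% became 0.744% at 10000 UMIs and 0.816% with a 5% granule limit. The 459 genes differing 2-fold from the other vehicle cells became 911 at 20 CPM, 253 at 100 CPM, 8293 with no limit, 712 with a 5% granule limit and 1206 with a 10% limit added after seeing the data. The 285 genes differing from the passing retinoic acid cells became 688, 134, 6875 and, at the added 10% limit, 548; the 5% limit kept this count within 1.5 times. Of called genes, 50.8% were higher against the other vehicle cells, 67.0% with the rule genes out of the totals, 64.9% with 5 counts added, 84.4% with no limit and 36.1% with the 10% limit. Against the retinoic acid cells 64.9% were higher (185 and 100 genes), but 48.2% with TMM scaling (150 and 161), 82.0% with 5 counts added, 88.0% with no limit and 52.9% with the 10% limit. Of 519 list medians over these settings, 11 changed sign, in 7 of 30 list results. The myeloid factors' median was 0.48 against the other vehicle cells (-0.01 at 20 CPM) and 0.20 against the retinoic acid cells (-0.08 with TMM scaling, -0.01 with the rule genes out of the totals). That of the sorted antigens against the retinoic acid cells was 0.20 (-0.22 without S100a8 and S100a9 in the rule, -0.09 with equal weight per cell, -0.11 at the 10% limit), and that of the chemokine list against the other vehicle cells 0.24 (-0.22 and -0.17 in the first 2 of these). The S phase list moved from -0.23 to 0.06 at 100 CPM; the NADPH and late neutrophil lists are given in the report. The cause of these shifts was not tested, apart from the CPM limits, which change the number of genes compared. Depth limits the members, where 3 counts are 3.96 CPM.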
